A study of Mus musculus with 6 samples.

Results

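Oxidative phosphorylation (OXPHOS) in the inner mitochondrial membrane rests on a set of multi-subunit enzymes, most of whose subunits are encoded in the nucleus. Complexes I and II pass electrons from NADH and succinate to ubiquinone, complex III passes them on to cytochrome c, and complex IV passes them to oxygen. Complexes I, III and IV pump protons as they do so, and complex V (ATP synthase) uses the proton gradient to make ATP. The nuclear-encoded subunits were taken from the gene count table by name: protein-coding genes starting with *Nduf* and a letter a, b, c, s or v with a digit, *Sdha* to *Sdhd*, *Uqcr*, *Cox4* to *Cox8* with a letter a to c, and *Atp5* with a letter, leaving out the assembly factors named *Ndufaf*. This gave 82 of the 22032 protein-coding genes (43346 genes of all kinds): 35 of complex I, 4 of complex II, 8 of complex III, 18 of complex IV and 17 of complex V. *Ndufa4* and its paralog *Ndufa4l2* were counted with complex IV, where the Ndufa4 protein is found. The name rule takes in *Atp5s* and *Atp5sl*, which are not structural subunits, and leaves out *Ndufab1*, *Cyc1*, *Cox4i1* and *Cox4i2*, which are described separately.

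RNA-seq was performed on mouse adult fibroblasts (MAFs), primary cells grown from ear tissue of adult C57BL6/J females, as 3 control and 3 senescent libraries. The control group had a sham exposure, while the senescent group received 20 Gy of X-rays and a further 21 days of culture. Both groups were grown at 3% oxygen in medium with fetal bovine serum and used between passage 3 and passage 8. Both were treated with 100 nM dexamethasone, a glucocorticoid that synchronizes the circadian clocks of cultured cells, for 2 hours and were harvested after another 12 hours, the only time sampled. The labels number the replicates but do not say whether they came from separate animals or cultures. The p-values therefore set group differences against the spread between these libraries, which may be technical. The libraries are bulk RNA, in which fewer cells of a type and less RNA per cell cannot be told apart.

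Library totals ranged from 50288454 to 82229553 counts. Senescent replicate 3 stood apart from the other 2 senescent libraries: its counts differed from theirs by 14.5 and 20.0 times the variation that sampling alone gives, against 2.15 times between replicates 1 and 2. Within the senescent group its GC-rich transcripts were low (slope of -0.27 log2 units per 10% GC, against 0.12 and 0.15). These slopes are of deviations from the group's own mean, so those of replicates 1 and 2 in part mirror that of replicate 3. Results are therefore also given without senescent replicate 3. To a lesser degree, control replicate 1 differed from control replicates 2 and 3, by 4.70 and 4.15 times sampling variation. Control replicates 2 and 3 differed by 1.74 times. The slopes within the control group were -0.084, 0.044 and 0.040 in replicates 1 to 3. Summed fibroblast markers (10 genes) were at 65158 to 67119 CPM (counts scaled to library size, with TMM factors) in control and 48779 to 54092 CPM in senescent libraries, and 6 of the 10 fell, among them *Col1a1* and *Vim*, while *Dcn*, *Lum* and *Thy1* rose. Most of these sums was *Fn1*, which was not called (means of 45655 CPM in control and 43858 CPM in senescent libraries). Chondrocyte markers were present too, with sums of 4998 to 5560 CPM in control and 359 to 445 CPM in senescent libraries (8 of 8 tested lower). The sums of 6 proliferation genes, all lower, were 1574 to 1636 CPM and 57.6 to 61.4 CPM. Macrophage and endothelial markers were low but higher in senescent libraries (8.24 to 9.01 against 18.2 to 21.1 CPM, and 2.53 to 2.93 against 8.03 to 8.45 CPM). The part of these shifts in the results below was not tested.

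Transcripts of OXPHOS subunits were lower in senescent cells across all 5 complexes. Summed over the 82 genes they made up 0.629, 0.649 and 0.644% of all counts in control replicates 1 to 3 and 0.525, 0.527 and 0.486% in senescent replicates 1 to 3. After TMM scaling the sums were 6426, 6703 and 6619 CPM in control and 5099, 5150 and 4738 CPM in senescent libraries, a ratio of the means of 0.759. Every senescent library lay below every control library, and senescent replicate 3 was the lowest. The differences of single genes were mostly shallow.

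Of the 82 genes, 79 had enough counts to be tested, and 53 of them (67.1%) passed an adjusted p of 0.05 as lower in senescent cells, against 34.1% of all 17589 genes tested. Among protein-coding genes with a mean level of at least 10 CPM, which 74 of the members reach in control cells, 40.2% were lower. Only 4 members (5.06%) were higher, against 36.2% of all genes: *Ndufa12*, *Ndufa4l2*, *Cox6a2* and *Cox6b2*. The other 22 were not called. All 3 senescent libraries lay below all 3 control libraries for 59 members, against 37.0% of all genes, and above them for 5 members, against 38.4%. The median log2 fold change was -0.36 (a median change of -21.9%), against 0.01 over all genes tested. Of the 53 lower members, 23 fell by less than 25%, 29 by 25 to 50% and 1, *Atp5g2*, by more than 50%. It alone passed a log2 fold change of -1 (12.3% of all genes did so), and *Cox6a2* and *Cox6b2* passed 1 in the other direction (17.7% of all genes).

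The count of lower members depended on how gene length was treated. OXPHOS genes are short (median length 1334 bases, against 3308 bases for all genes tested), and the part of their length was not tested. With offsets for the trend of counts on gene length in each library, 38 members were lower and 11 higher, against 30.7 and 39.8% of all genes in that fit, and the median log2 fold change was -0.22. Without senescent replicate 3, 59 members were lower and 6 higher, against 37.4 and 39.7% of all genes in that fit. The median was -0.30. Of the 57 called members, 23 had a log2 fold change that was smaller by over 1.5 times, or turned, with the offsets for gene length. With a GC term for the transcripts, chosen after seeing the data, 16 did so, and without senescent replicate 3, 6 did. Scaling by library size alone, in place of TMM, had 7. In the same order 14, 7, 1 and 11 of the 57 calls were lost. With library size alone 42 members were lower and 5 higher, against 30.5 and 39.4% of all genes in that fit. Conversely, 9 of the 22 members not called were called without senescent replicate 3.

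**Figure D1:**
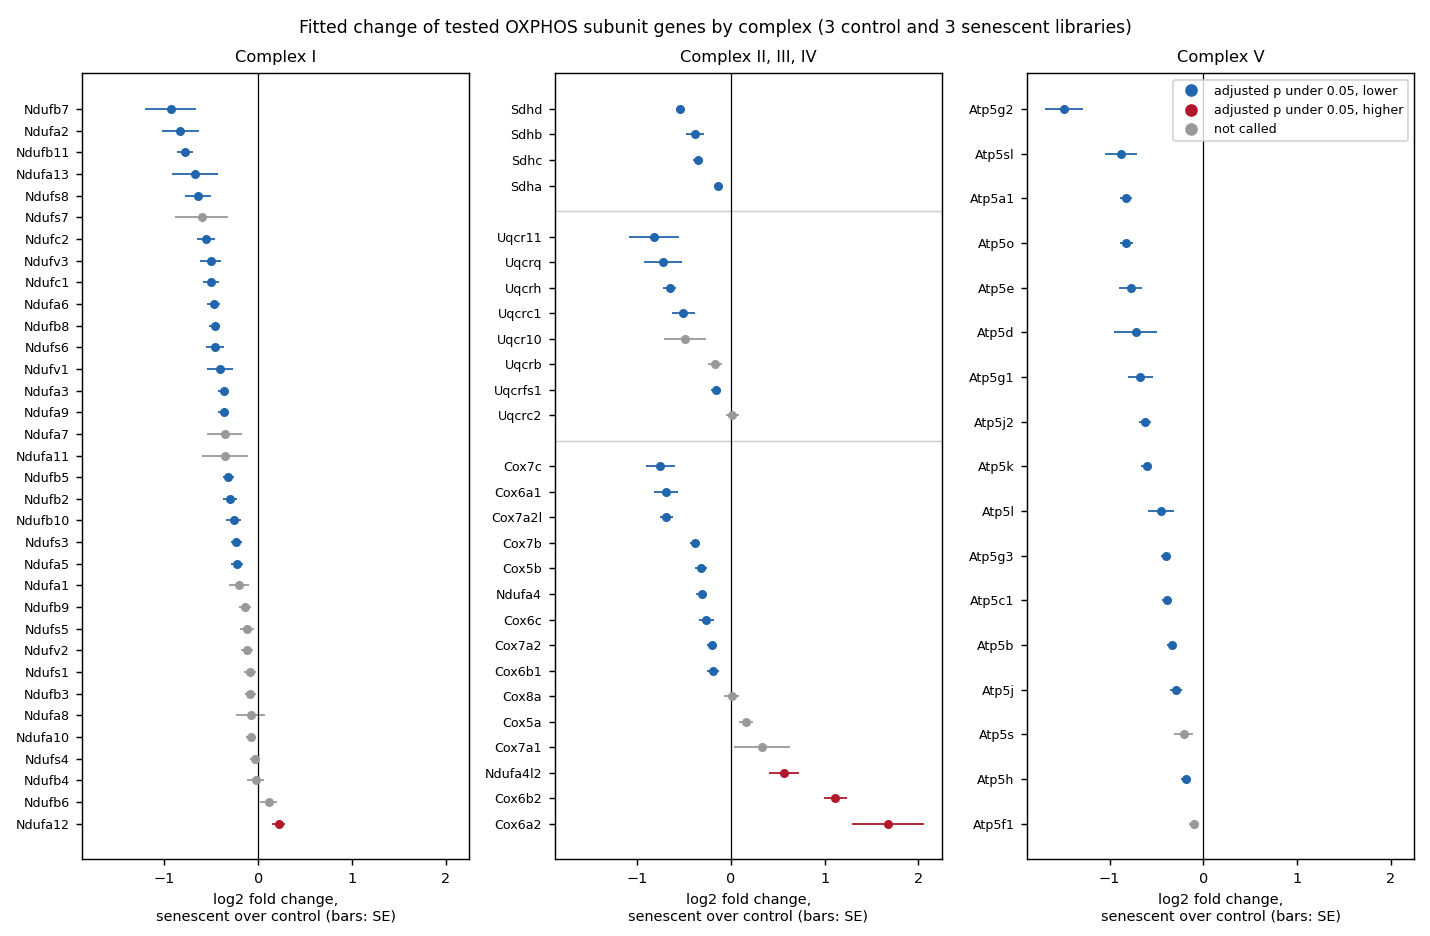
Fitted log2 fold change (senescent over control, x axis) of the tested members but 1, listed by name on the y axis and grouped by complex; bars are standard errors, and blue, red and grey mark genes called lower, called higher and not called at an adjusted p under 0.05. Most points lie between 0 and -1, complex V lies entirely below 0, and the red points of complex IV (*Ndufa4l2*, *Cox6b2*, *Cox6a2*) lie apart to the right.

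Over all genes tested 34.1% were lower. By complex, the lower members numbered 20 of 35 in complex I, 4 of 4 in complex II and 5 of 8 in complex III. They numbered 9 of 15 tested in complex IV and 15 of 17 in complex V. The median log2 fold changes were -0.35, -0.37, -0.50, -0.20 and -0.61 in that order. Summed levels were also lower, with senescent over control ratios of 0.783, 0.820, 0.770, 0.829 and 0.704. For complex V the sums were 2713, 2774 and 2736 CPM in control and 1961, 1964 and 1864 CPM in senescent libraries. Complex IV went from 971, 1025 and 1016 CPM to 849.7, 864 and 783 CPM. In each complex the highest senescent sum was below the lowest control sum. Differences between complexes were not tested. Without senescent replicate 3 the medians were -0.25, -0.30, -0.30, -0.17 and -0.47, and with the offsets for gene length that of complex IV turned to 0.12.

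**Figure D2:**
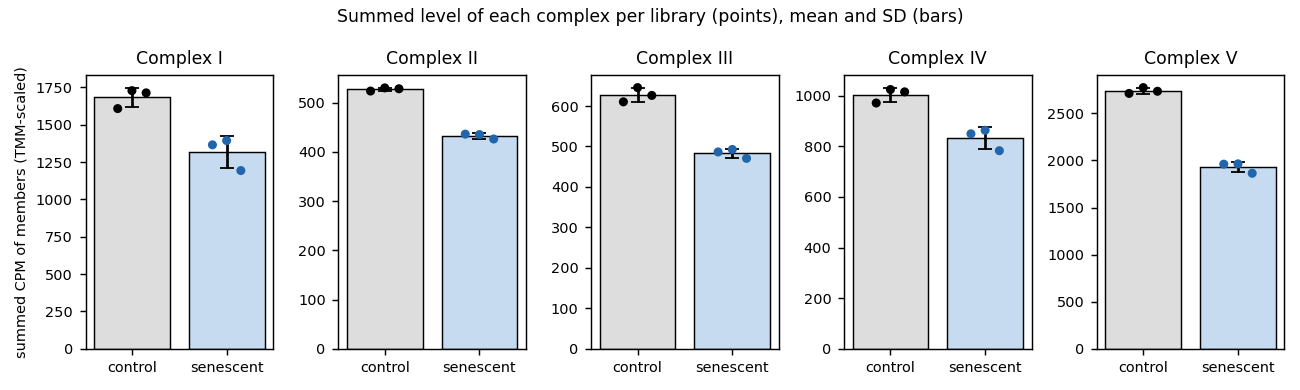
Summed TMM-scaled CPM of the members of each complex (y axis, from 0) in control and senescent cells; points are the libraries, bars the mean and error bars the SD over 3 libraries. Control and senescent points do not overlap in any panel, and complex V shows the lowest ratio (0.704).

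Complex I has an NADH-oxidizing arm in the matrix and a proton-pumping arm in the membrane. Its core subunits encoded in the nucleus carry the flavin and the iron-sulfur clusters. *Ndufs8*, which holds iron-sulfur clusters on the way to ubiquinone, went from 37.8, 42.7 and 43.7 CPM in control to 28.2, 30.3 and 20.98 CPM in senescent replicates 1 to 3 and was lower. The log2 fold change was -0.64 ± 0.14 SE, and -0.49 without senescent replicate 3, its lowest library. It was -0.39 with the offsets for gene length and -0.42 with the GC term. *Ndufv1*, the subunit that binds NADH and the flavin, had 73.9, 79.6 and 80.3 CPM in control and 63.4, 67.2 and 45.5 CPM in senescent libraries (log2 fold change -0.41 ± 0.14 SE, edgeR adjusted p = 0.0268). Its call was lost in 5 of the 16 alternative fits, and its log2 fold change was -0.25 without senescent replicate 3 and -0.13 with the GC term. *Ndufs3*, which joins the matrix modules, was at 43.5, 40.7 and 43.98 CPM and 35.7, 36.4 and 37.05 CPM, a small fall of 14.8% (edgeR adjusted p = 0.00900) that was near 0 once the GC term was added (log2 fold change -0.02).

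Several core subunits were not called. *Ndufs1*, the largest iron-sulfur protein of the complex, was at 111, 106 and 107 CPM in control and 100.2, 96.1 and 109.6 CPM in senescent libraries, and *Ndufv2*, another iron-sulfur subunit, at 59.3, 62.1 and 60.8 CPM and 53.4, 54.2 and 60.4 CPM. In both, senescent replicate 3 lay above the other senescent libraries and within the control range, and replicates 1 and 2 lay below all controls. Both were called lower without senescent replicate 3 (log2 fold changes -0.13 and -0.17, edgeR adjusted p = 0.00605 and 0.00192) and with the GC term (-0.14 and -0.25). *Ndufs7*, an iron-sulfur subunit, showed the reverse: 15.02, 18.7 and 18.8 CPM in control and 13.6, 14.7 and 6.40 CPM in senescent libraries, with replicate 3 far below the rest. Its log2 fold change was -0.60 ± 0.28 SE with an edgeR adjusted p of 0.0882, and -0.30 without that library, when it was called (0.00980).

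Among the 28 accessory subunits of complex I, 16 were lower (57.1%, against 34.1% of all genes tested) and 1 was higher (3.57%, against 36.2%). *Ndufb11*, of the membrane arm, was at 52.5, 60.9 and 56.7 CPM in control and 33.7, 35.5 and 30.2 CPM in senescent libraries. It fell by 41.7% (log2 fold change -0.78 ± 0.085 SE, edgeR adjusted p = 9.10e-05), and all senescent values were under all control values. With the offsets for gene length the log2 fold change was -0.51. *Ndufb8*, also of the membrane arm, went from 57.5, 58.99 and 55.3 CPM to 42.02, 42.3 and 40.3 CPM, with a narrow spread in both groups (edgeR adjusted p = 0.000171). *Ndufa6*, an accessory subunit of the matrix arm, went from 23.7, 24.8 and 23.8 CPM to 17.8, 17.8 and 16.4 CPM (log2 fold change -0.47 ± 0.070 SE). Its call was lost with the offsets for gene length (-0.09). *Ndufb7*, of the membrane arm, had the largest fitted fall of the accessory subunits with all libraries, from 28.2, 39.8 and 38.2 CPM to 21.4, 23.4 and 10.98 CPM. Senescent replicate 3 was by far the lowest library: the log2 fold change was -0.93 ± 0.27 SE with senescent replicate 3 and -0.65 without it, less than the -0.71 of *Ndufb11*. The call of *Ndufb7* was lost in 4 of the 16 alternative fits.

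*Ndufa12*, which sits late in the assembly of the matrix arm, was the single complex I member that was higher, at 20.2, 20.7 and 21.8 CPM in control and 25.02, 24.7 and 23.1 CPM in senescent libraries. The groups did not overlap, but the difference of 16.2% (edgeR adjusted p = 0.0243) was no longer called in 7 of the 16 alternative fits. The remaining accessory subunits had log2 fold changes from -0.83 (*Ndufa2*, and -0.46 with the offsets for gene length) to 0.11 (*Ndufb6*, called higher with those offsets, at 0.46). The *Ndufb* subunits, which belong to the far end of the membrane arm, had 6 of 10 lower (against 34.1% of all genes tested). Their median was -0.28.

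Complex II, the membrane-bound succinate dehydrogenase of the citric acid cycle, has 4 subunits, all nuclear. All 4 were lower, and their falls were unequal. The membrane anchor *Sdhd* was at 110.3, 111 and 110.4 CPM in control and 78.03, 76.6 and 73.8 CPM in senescent libraries. It fell by 31.03% (log2 fold change -0.54 ± 0.052 SE, edgeR adjusted p = 4.31e-05), with control values nearly equal. The other anchor, *Sdhc*, went from 116, 117 and 116 CPM to 91.8, 92.96 and 88.9 CPM, a fall of 21.5%. The iron-sulfur subunit *Sdhb* was at 59.97, 65.9 and 65.5 CPM and 52.8, 52.1 and 41.9 CPM (log2 fold change -0.38 ± 0.097 SE). The groups were separate for these 3 genes, and all 3 were lower in all 16 alternative fits, though *Sdhb* was at -0.19 with the GC term and *Sdhd* at -0.35 with the offsets for gene length. The flavoprotein *Sdha*, which oxidizes succinate, fell by 8.72%, from 237, 237 and 236 CPM to 213, 213 and 221 CPM (edgeR adjusted p = 0.0438). Its call was lost in 13 of the 16 alternative fits, with adjusted p up to 0.367.

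Complex III passes electrons through cytochrome b, cytochrome c1 and the Rieske protein. *Uqcrh*, the hinge protein that lies next to cytochrome c1, was its most strongly supported fall: 167, 171 and 159 CPM in control and 102, 99.3 and 115 CPM in senescent libraries (log2 fold change -0.65 ± 0.071 SE, edgeR adjusted p = 9.08e-05). *Uqcrc1*, a core protein on the matrix side, went from 99.5, 113 and 115 CPM to 82.3, 85.7 and 62.7 CPM, a fall of 29.6% (log2 fold change -0.51, and -0.32 with the GC term). Its core partner *Uqcrc2* did not pass the test, at 130.4, 125 and 119 CPM and 122, 121 and 136 CPM, and the 2 groups overlapped. The Rieske protein gene *Uqcrfs1* fell by 10.2% (edgeR adjusted p = 0.0334), from 48.5, 46.7 and 47.04 CPM to 43.1, 41.7 and 42.97 CPM, and its call was lost in 13 of the 16 alternative fits.

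Among complex III genes, the small subunits *Uqcr11*, *Uqcr10* and *Uqcrq* had the largest standard errors (0.27, 0.22 and 0.20). *Uqcr11* was at 31.1, 41.8 and 41.03 CPM in control and 25.3, 26.8 and 12.5 CPM in senescent libraries. *Uqcrq* was at 24.1, 34.9 and 35.5 CPM and 20.5, 22.7 and 14.2 CPM. For both, the lowest control was replicate 1 and the lowest senescent library was replicate 3, and the groups did not overlap. The log2 fold changes were -0.82 and -0.72, and without senescent replicate 3 they were -0.53 and -0.54, the latter no longer called (edgeR adjusted p = 0.0689). Each lost its call in 5 of the 16 alternative fits, *Uqcr11* among them with the offsets for gene length (-0.47). *Uqcrb* and *Uqcr10* were not called (log2 fold changes -0.17 and -0.49), but both were lower without senescent replicate 3 (-0.24 and -0.24), and *Uqcrb* also with the GC term (-0.34).

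Complex IV, cytochrome c oxidase, had members called in both directions. Of the 15 tested, 9 were lower (60%, against 34.1% of all genes tested), 3 higher (20%, against 36.2%) and 3 not called. *Cox7a2l* was at 118, 122 and 126 CPM in control and 75.7, 81.5 and 70.5 CPM in senescent libraries and fell by 37.8% (log2 fold change -0.69 ± 0.069 SE, edgeR adjusted p = 5.64e-05). *Cox7c* fell from 51.2, 62.2 and 56.95 CPM to 35.3, 40.4 and 25.7 CPM (log2 fold change -0.75 ± 0.16 SE). With all libraries this was the largest fall of the complex, and without senescent replicate 3 it was smaller than that of *Cox7a2l* (-0.58 against -0.63). *Cox7b*, a small subunit of the membrane part, went from 94.5, 96.7 and 94.5 CPM to 75.003, 70.9 and 73.5 CPM, and *Cox5b*, the zinc-binding subunit, from 40.6, 43.4 and 43.1 CPM to 34.2, 34.3 and 33.5 CPM. Both falls were tight, with no overlap (log2 fold changes -0.38 and -0.32, edgeR adjusted p = 0.000318 and 0.00163). With the offsets for gene length they were -0.18 and -0.17, and both calls were lost once the replicate term was added to those offsets. *Cox8a*, a ubiquitously expressed small subunit, did not pass the test, at 52.3, 55.2 and 59.4 CPM and 56.8, 59.7 and 51.4 CPM, but was called higher with the GC term or the offsets for gene length (log2 fold change 0.38 and 0.39).

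Several subunits of complex IV exist as paralogs with different tissue patterns, and the higher members of the complex were all of the kind that is the less abundant in these cells. *Cox6b2* is best known from testis, where it takes the place of *Cox6b1*. It was at 3.51, 3.72 and 3.54 CPM in control and 8.01, 8.75 and 6.59 CPM in senescent libraries, a 2.17-fold rise (log2 fold change 1.11 ± 0.12 SE, edgeR adjusted p = 9.88e-05), and was higher in all 16 alternative fits. Its partner *Cox6b1* stayed far more abundant, at 138, 137 and 139 CPM in control and 125, 127 and 112 CPM in senescent libraries. *Cox6b1* fell by 12.2% (edgeR adjusted p = 0.0264), a call that turned to a rise with the offsets for gene length (log2 fold change 0.20). Of the counts of the pair, *Cox6b2* took 2.48, 2.64 and 2.48% in control and 6.04, 6.46 and 5.54% in senescent replicates 1 to 3.

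The 150 bases before the RefSeq start of each gene of the *Cox6b* pair are shown because the pair moved apart. Capitals mark matches to the motifs listed further on, read on either strand, and the build is GRCm38.p6, here and below.
Cox6b1, chr7:30626115-30626264, minus strand: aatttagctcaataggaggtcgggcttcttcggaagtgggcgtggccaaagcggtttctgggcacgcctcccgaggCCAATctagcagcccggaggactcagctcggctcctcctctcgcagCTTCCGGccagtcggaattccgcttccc
Cox6b2, chr7:4753095-4753244, minus strand: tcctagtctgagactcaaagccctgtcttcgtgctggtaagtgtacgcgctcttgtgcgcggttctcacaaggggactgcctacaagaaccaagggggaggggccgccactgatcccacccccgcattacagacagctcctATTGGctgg
The *Cox6b1* stretch held an ETS/GABP match and a CCAAT match, and the *Cox6b2* stretch held a CCAAT match alone, close to the start. In the longer windows described further on, of 300 bases, each of these genes held 3 CCAAT matches. The bases are not evidence of binding.

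*Ndufa4l2*, a paralog of the complex IV subunit *Ndufa4* known as a hypoxia-induced gene, was at 31.4, 38.6 and 37.5 CPM in control and 58.9, 60.1 and 39.95 CPM in senescent libraries (log2 fold change 0.56 ± 0.16 SE, edgeR adjusted p = 0.0138). Senescent replicate 3 lay just above the highest control, and without it the log2 fold change was 0.74. With the GC term it was 0.95, and the call was lost without control replicate 1. *Ndufa4* itself fell by 19.4%, from 113, 117 and 114 CPM to 89.8, 90.5 and 97.5 CPM, a fall not seen with the offsets for gene length (0.09). The share of *Ndufa4l2* in the pair was 21.7, 24.8 and 24.7% in control and 39.6, 39.9 and 29.1% in senescent libraries.

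*Cox6a2* and *Cox7a1* are the heart and skeletal muscle forms of their subunits. *Cox6a2* was barely present, at 0.0601, 0.167 and 0.286 CPM in control and 0.577, 0.530 and 0.545 CPM in senescent libraries (3, 10 and 14 counts against 32, 42 and 46 counts). The rise was 3.20-fold (log2 fold change 1.68 ± 0.38 SE, edgeR adjusted p = 0.00497) and carried *Cox6a2* to 1.05, 0.911 and 1.28% of the counts of its pair, from 0.0821, 0.193 and 0.321%. Its partner *Cox6a1* fell by 38.1%, from 73.2, 86.8 and 88.9 CPM to 54.5, 57.6 and 41.9 CPM. The log2 fold change of *Cox6a1* was -0.69, against -0.27 with the GC term and -0.36 with the offsets for gene length. *Cox7a1* was at 0.221, 0.151 and 0.184 CPM and 0.180, 0.252 and 0.249 CPM with overlapping groups, and *Cox7a2*, its partner, fell by 12.95% (edgeR adjusted p = 0.0120), from 85.8, 86.6 and 87.3 CPM to 77.1, 71.7 and 77.3 CPM, with a value of 0.12 under the offsets for gene length. The 9 skeletal muscle markers summed to 17.7 to 22.8 CPM in control and 17.1 to 29.9 CPM in senescent libraries, nearly all of it *Acta1*, which was not called. Of the 3 tested, *Des* was higher (3.83-fold, from 18, 15 and 8 counts to 55, 85 and 78 counts) and *Tnnt3* was not called. Below the filter, *Myod1* had 0 counts in every control library and 6, 3 and 10 counts in senescent libraries, *Myh1* also lay above all controls, and *Myh2*, *Myh4*, *Ckm* and *Myog* were at or near 0 with overlapping groups. Of the 3 cardiac markers tested, *Tnnt2* was higher (1.85-fold), *Tnni3* lower and *Myh7* not called. Their part in the value of *Cox6a2* was not tested. The muscle form *Cox8b* had 0 counts in every library, which allows a level of up to 0.0365 to 0.0597 CPM in a library. *Cox7b2* had 2 counts in senescent replicate 1 and *Cox8c* had 2 in senescent replicate 2, and both had none elsewhere.

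Complex V was lower nearly throughout, with 15 of 17 members lower (88.2%, against 34.1% of all genes tested). The fitted log2 fold change was negative in all 17. The 5 genes of the catalytic head were all lower. *Atp5a1*, the alpha subunit, was at 608, 606 and 607 CPM in control and 356, 357 and 316 CPM in senescent libraries, and fell by 43.5% (log2 fold change -0.82 ± 0.063 SE, edgeR adjusted p = 1.27e-05). *Atp5b*, the catalytic beta subunit that alternates with it in the ring, went from 840.1, 826 and 814 CPM to 659, 644 and 657 CPM and fell by 20.96% (log2 fold change -0.34 ± 0.049 SE, and -0.21 with the GC term). In control cells these partners stood at nearly the same level per length, 194 and 195 RPKM (CPM per kilobase of gene length), and in senescent cells at 109 and 154 RPKM. *Atp5c1*, the rotating gamma subunit, went from 172, 165 and 161 CPM to 125, 126 and 130.3 CPM. *Atp5e*, epsilon, went from 64.7, 77.8 and 73.6 CPM to 43.4, 48.1 and 34.96 CPM. *Atp5d*, delta, went from 65.98, 84.6 and 77.9 CPM to 53.2, 56.5 and 29.1 CPM. None of these groups overlapped, and the last rested in part on senescent replicate 3 (log2 fold change -0.72, and -0.47 without it). With the GC term *Atp5d* was at -0.38, and its call was lost in 3 of the 16 alternative fits.

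The c subunits form the rotor ring in the membrane, and *Atp5g1*, *Atp5g2* and *Atp5g3* encode the same mature c subunit behind different import sequences. *Atp5g2* (chromosome 15 from 102662864 to 102672352, mm10) was at 57.4, 63.9 and 63.4 CPM in control and 24.7, 26.8 and 14.6 CPM in senescent libraries. This was the largest fall of any member, 64.2% (log2 fold change -1.48 ± 0.20 SE, edgeR adjusted p = 0.000331), and the groups lay far apart. *Atp5g1* (chromosome 11 from 96068852 to 96075670) went from 79.2, 90.5 and 91.3 CPM to 59.03, 62.1 and 42.9 CPM and fell by 37.2%. *Atp5g3* (chromosome 2 from 73908447 to 73911326), the most abundant of the family by count, went from 148, 157 and 156 CPM to 114, 117 and 119 CPM and fell by 24.03%. *Atp5g2* has the highest GC content of all members (63.3%), and its log2 fold change was -1.25 without senescent replicate 3 and -1.09 with the GC term.

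The make-up of the c-subunit transcripts differed between the groups. *Atp5g2* supplied 20.2, 20.5 and 20.4% of the family's counts in control and 12.5, 13.1 and 8.25% in senescent replicates 1 to 3. *Atp5g3* supplied 51.9, 50.4 and 50.3% and 57.6, 56.8 and 67.5%, and *Atp5g1* 27.9, 29.1 and 29.4% and 29.9, 30.2 and 24.3%. The *Atp5g2* and *Atp5g3* shares did not overlap between groups, and those of *Atp5g1* did. By exact two-sided permutation tests each share that did not overlap, in this family and in the pairs of *Cox6a*, *Cox6b*, *Ndufa4* and *Cox4i*, had p = 0.1, the smallest that 3 against 3 libraries allow (0.133 after Benjamini-Hochberg adjustment over the 8 shares tested), so no share can pass 0.05 here.

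**Figure D3:**
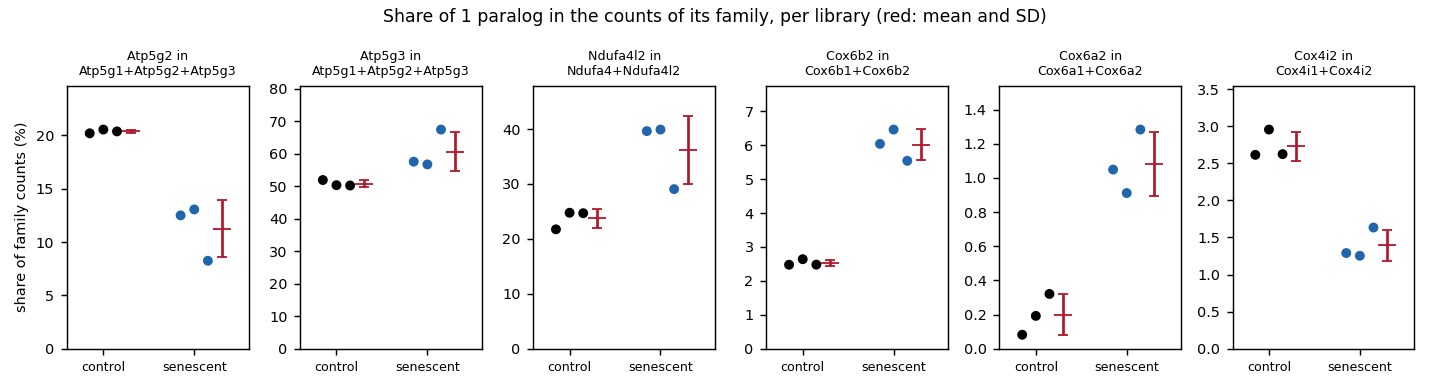
Share of 1 paralog in the summed counts of its family (y axis, percent, from 0) in each control and senescent library; points are libraries, red marks the mean and SD of 3. *Atp5g2* and *Cox4i2* lie lower in senescent libraries, and *Atp5g3*, *Ndufa4l2*, *Cox6b2* and *Cox6a2* higher, with no overlap in any panel.

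The 150 bases before the RefSeq start of each c-subunit gene are shown because these genes code for 1 protein and differed in the size of their fall. The start of *Atp5g2* used here lies 1305 bases inside the 5′ end of the deposited gene record.
Atp5g1, chr11:96075632-96075781, minus strand: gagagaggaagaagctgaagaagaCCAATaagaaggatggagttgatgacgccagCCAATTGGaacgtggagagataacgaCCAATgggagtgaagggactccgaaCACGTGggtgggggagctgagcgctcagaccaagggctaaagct
Atp5g2, chr15:102671048-102671197, minus strand: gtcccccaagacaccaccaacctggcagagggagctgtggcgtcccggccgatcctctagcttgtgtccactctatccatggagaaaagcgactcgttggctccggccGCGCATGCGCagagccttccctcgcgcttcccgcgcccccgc
Atp5g3, chr2:73911327-73911476, minus strand: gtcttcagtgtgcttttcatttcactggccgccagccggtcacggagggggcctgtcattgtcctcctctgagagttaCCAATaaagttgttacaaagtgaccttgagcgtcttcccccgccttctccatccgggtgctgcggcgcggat
The stretch of *Atp5g2*, the gene with the largest fall, held a palindromic NRF1 match and no other. That of *Atp5g1* held 4 overlapping or separate CCAAT matches and an E-box, and that of *Atp5g3* held a CCAAT match. In the longer windows described below, of 300 bases, *Atp5g3* held an NRF1 match and an E-box as well. In its longer window *Atp5g1* held 5 CCAAT matches and also an AP-1 match.

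The peripheral stalk holds the head still against the turning rotor. *Atp5o*, which ties the stalk to the head, fell by 43.5%, from 120.5, 124 and 124 CPM to 73.6, 71.1 and 63.6 CPM (edgeR adjusted p = 1.85e-05). The other stalk genes differed less: *Atp5j* and *Atp5h* had log2 fold changes of -0.29 and -0.18. The call of *Atp5h* was lost in 10 of the 16 alternative fits (-0.02 with the offsets for gene length). *Atp5f1*, subunit b, was not called at 135, 140.4 and 133 CPM in control and 127, 124 and 130.3 CPM in senescent libraries. It was lower with the GC term (-0.31) and without senescent replicate 3 (-0.11). The small membrane subunits *Atp5k*, *Atp5j2* and *Atp5l* were all lower. *Atp5k*, which helps ATP synthase dimers form, went from 45.5, 48.2 and 46.96 CPM to 30.9, 30.8 and 30.7 CPM (log2 fold change -0.61 ± 0.057 SE), and *Atp5j2* from 94.4, 104 and 101 CPM to 66.9, 65.9 and 61.6 CPM. *Atp5l* fell by 26.995% (log2 fold change -0.45), and its call was lost in 6 of the 16 alternative fits. With the offsets for gene length *Atp5l* was at -0.07 and not called, *Atp5k* at -0.24 and *Atp5j2* at -0.43. Of the genes that share the name without being structural subunits, *Atp5sl* was lower (log2 fold change -0.88) and *Atp5s* was not called (-0.21), except without senescent replicate 3 (-0.27) and with the GC term (-0.39).

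Compared per length, the order of the members changed little at the top. *Cox6b1*, *Ndufa4*, *Atp5b* and *Atp5a1* had the 4 highest mean levels in both groups, at 273, 233, 195 and 194 RPKM in control and 240, 188, 154 and 109 RPKM in senescent cells. *Cox7a2l* moved from rank 8 (106 RPKM) to rank 15 (66.2 RPKM), and *Cox8a* from rank 9 to rank 5 (102 and 103 RPKM).

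The 79 members leaned the same way in each senescent library. Against the control mean the median log2 ratio was -0.31 in senescent replicate 1, -0.32 in replicate 2 and -0.43 in replicate 3. Replicate 3 was the lowest of all 6 libraries for 49 members, a count not made over all genes. It lay below all controls for 65 of the 79 members, against 7919 of all 17589 genes tested. It was the lowest senescent library for 53 members, against 7396 of all genes tested. In replicate 3 the ratio followed GC content: the 14 members with at least 55% GC had a median of -0.88 and the 14 under 45% GC a median of -0.09. In replicates 1 and 2 the same GC-rich members had medians of -0.33 and -0.23, and the GC-poor ones -0.27 and -0.26. Across members, Spearman's rho between GC content and the log2 ratio was -0.12, -0.06 and -0.34 in the 3 libraries, as a description of 79 genes that share these libraries.

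**Figure D4:**
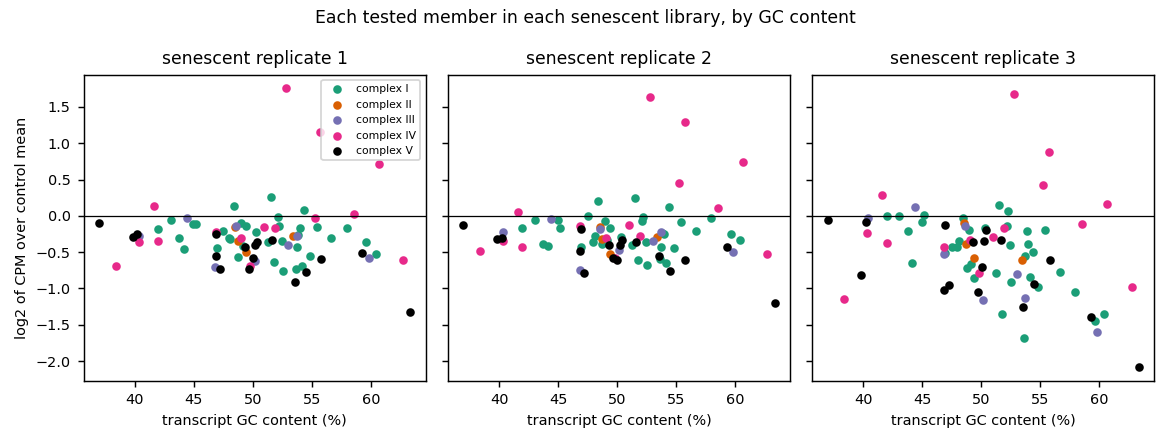
Log2 ratio of each tested member to its control mean (y axis) against the GC content of its transcript (x axis, percent), 1 panel per senescent library, with colours for the complexes. Points lie mostly below 0 in all panels, and only in the panel of replicate 3 do the GC-rich members lie well below the others (median -0.88 at 55% GC and above).

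The subunits and carriers that the name rule leaves out did not move as a block. *Cox4i1*, a nuclear subunit that joins complex IV early, was at 208, 235 and 237 CPM in control and 152, 160.0 and 103 CPM in senescent libraries and fell by 38.97% (log2 fold change -0.71, and -0.39 with the GC term). Its oxygen-responsive paralog *Cox4i2* fell by 70.1% (edgeR adjusted p = 1.05e-05), from 5.59, 7.16 and 6.38 CPM to 1.98, 2.03 and 1.72 CPM, and its share in the pair was 2.61, 2.96 and 2.62% in control and 1.29, 1.25 and 1.63% in senescent libraries. *Ndufab1*, the mitochondrial acyl carrier protein that is also a complex I subunit, rose 1.32-fold, from 33.4, 32.5 and 32.6 CPM to 42.4, 41.4 and 46.4 CPM. *Cycs*, cytochrome c itself, rose 1.59-fold, from 43.1, 41.6 and 38.95 CPM to 61.8, 65.2 and 69.3 CPM. *Cyc1*, cytochrome c1 of complex III, was not called (log2 fold change 0.09), but was higher without senescent replicate 3 (0.17), with the offsets for gene length (0.29) and with the GC term (0.51). All 37 genes of the mitochondrial chromosome in the table had 0 counts in every library, so the 13 subunits encoded there are not measured here.

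The lists of assembly factors, which build the complexes, held 51 genes with the ATP synthase inhibitor *Atpif1* counted in. Of these, 15 were lower (29.4%, against 34.1% of all genes tested) and 18 higher (35.3%, against 36.2%), shares near those of all genes. The median log2 fold change was -0.07. *Ndufaf4*, an assembly factor of complex I, was at 11.3, 11.5 and 13.8 CPM in control and 37.8, 38.7 and 43.7 CPM in senescent libraries, a 3.27-fold rise (edgeR adjusted p = 3.11e-06). Of the 14 factors for complex I, 4 were lower (among them *Nubpl*, *Foxred1* and *Ndufaf3*) and 4 higher (with *Ndufaf6* and *Timmdc1*). Of the 8 for complexes II and III, 2 were lower (*Uqcc3* and *Bcs1l*) and 5 higher, led by *Sdhaf2*, *Uqcc1* and *Ttc19* (log2 fold changes 0.72, 0.65 and 0.79). Of the 25 for complex IV, 8 were lower and 7 higher. *Cmc2* fell by 70.9%, from 17.2, 17.1 and 17.2 CPM to 4.85, 5.30 and 4.82 CPM, and *Coa5* and *Lrpprc*, an RNA-binding protein that stabilizes mitochondrial mRNAs, had log2 fold changes of 0.77 and 0.79. Among 4 genes for complex V, *Tmem70* and *Atpaf2* were higher (0.84 and 0.31), while *Atpif1*, the inhibitor that stops ATP synthase from running in reverse, fell by 59.3%, from 79.6, 86.5 and 85.95 CPM to 36.3, 37.8 and 28.6 CPM.

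The citric acid cycle, which feeds the chain, was lower in 9 of 14 enzymes (64.3%, against 34.1% of all genes tested) and higher in 3 (21.4%, against 36.2%), with a median log2 fold change of -0.20. *Idh2*, the NADP-dependent isocitrate dehydrogenase of mitochondria, fell by 79.9%, from 95.4, 100.3 and 103 CPM to 22.7, 21.6 and 15.7 CPM (edgeR adjusted p = 2.60e-06). *Idh3g* fell too, with a log2 fold change of -0.43. *Idh3a*, the catalytic subunit of the NAD-dependent enzyme that *Idh3g* also belongs to, rose, from 66.7, 64.4 and 64.5 CPM to 102, 99.7 and 108 CPM. *Dld* and *Sucla2* rose as well (0.41 and 0.25).

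Of 17 regulators of respiratory genes and of mitochondrial DNA transcription, 3 were lower (17.6%, against 34.1% of all genes tested), 6 higher (35.3%, against 36.2%) and 8 not called, with a median log2 fold change of -0.0027. The share of higher genes was near that of all genes. *Nrf1*, a transcription factor of respiratory genes, was at 29.95, 30.6 and 31.001 CPM in control and 23.9, 23.7 and 20.9 CPM in senescent libraries (log2 fold change -0.42 ± 0.075 SE). *Polg*, the mitochondrial DNA polymerase, and *Tfb1m* were lower (-0.63 and -0.37), the latter not with the offsets for gene length (-0.19). *Tfb2m* and *Tefm*, both of mitochondrial transcription, and the coactivator *Pprc1* were higher (0.67, 0.40 and 0.37). *Ppargc1a*, the coactivator best known for driving mitochondrial biogenesis, had a log2 fold change of -0.22 and was not called, though it was lower with the GC term (-0.36).

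RefSeq promoter windows, from 250 bases before to 50 bases after a start, were matched for 69 members and for 16827 protein-coding genes. The NRF1 motif GCGCANGCG was held by 19 member windows (27.5%), against 9.23% of all windows. The ETS/GABP motif CCGGAAG was held by 15 (21.7%, against 12.3%) and the YY1 motif AANATGGCG by 9 (13.0%, against 3.42%). These are factors known to act on respiratory genes, and the YY1 matches lay in 6 windows of complex I and 3 of complex V. The general CCAAT motif was held by 31 (44.9%, against 39.1%), the E-box CACGTG, to which BMAL1 and CLOCK bind, by 7 (10.1%, against 8.09%), and the AP-1 motif TGANTCA by 6 (8.70%, against 7.10%). Among tested members, 15 of 19 with the NRF1 motif were lower, with a median log2 fold change of -0.45, against 32 of 48 without it and a median of -0.36. All 6 with the AP-1 motif were lower, against 41 of 61 without it, and 5 of 7 with the E-box, against 42 of 60 without it. Both strands were searched, motifs may overlap, and these counts are a description of letters, not of binding.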

How the data were processed

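Stranded libraries were made from polyadenylated RNA (200 ng of total RNA) and sequenced as paired reads of 100 bases. Per the paper's methods and the labels, the authors aligned reads to mm10 by STAR (MAPRSeq pipeline), used Subread for gene counts, and deposited raw, unnormalized counts beside each gene's length in bases. The strand setting of the counting and the treatment of reads with several hits are not given in the sources used here, so values of members with close paralogs or processed pseudogenes are uncertain. The 37 mitochondrial rows hold 0 counts. Titles and column names gave group and replicate number.

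The deposited counts were filtered with filterByExpr (17589 genes kept), scaled by TMM and compared by edgeR 4.0.16 (R 4.3.3, robust quasi-likelihood test, group as the only term, two-sided), with Benjamini-Hochberg adjustment over all genes tested. A gene was called at an adjusted p under 0.05, and "lower", "higher", "fell" and "rose" refer to such calls. CPM and RPKM were computed here with TMM-scaled library sizes. Totals of 50288454 to 82229553 counts leave a gene with 0 counts at up to 3 counts per library, an allowance that covers counting error alone. Values are listed in the order of replicates 1 to 3.

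Alternatives were RLE scaling, library size alone, no filter beyond 1 count, at least 10 counts in every library, DESeq2 1.42.0, a replicate term, offsets for gene length with and without that term, and each library left out. A GC term, with and without the replicate term, was chosen after seeing the data, from GENCODE transcripts of GRCm38, the assembly of mm10. The fit and the GC term were tested on simulated data. Paralog shares were compared by exact permutation tests. RefSeq promoter windows (GRCm38.p6) were matched by Ensembl identifier, symbol or synonym, taking the start nearest the 5′ end of the deposited gene. Among members with no matched window were *Atp5a1*, *Cox6a2*, *Cox6c*, *Cox8c*, *Ndufa2*, *Ndufa4l2*, *Ndufb9*, *Ndufs1*, *Sdhc*, *Uqcrb*, *Uqcrc2* and *Uqcrq*. *Ndufaf8*, *Coa1*, *Sdhaf3* and *Sdhaf4* of the assembly lists matched no gene name.

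The members and lists were chosen with earlier results of these data known. Within each complex the genes named are the 4 called members with the smallest p in each direction and the largest change, plus all paralog families, complex II, the complex I core, *Uqcrc1*, *Uqcrc2*, *Uqcrfs1* and the head of complex V, and members below the filter. Up to 3 genes per direction are named from each other list. Some genes that the rule names are not reported here. Further members were named after their values were seen.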

Additional observations from a re-analysis of the deposited data

How the results depend on the processing

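The named genes followed under the alternatives also number 82, but they are not the 82 members. They include genes of the other lists, such as *Sucla2*, and leave out some members, such as *Atp5h*. Of 1310 values of these named genes, 1197 kept their direction and side of the threshold, 81 lost the call, 18 gained it and 14 turned. Over the main fit and its 16 alternatives, 27 members were lower in every fit, 1 (*Cox6b2*) was higher in every fit, and 1 (*Cox6b1*) was called in both directions. The share of all genes called in every fit was not computed, so these counts have no background. In single fits 20.3 to 37.4% of all genes were lower and 25.9 to 42.5% higher.

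Gene length mattered most. With offsets for gene length the higher members rose to 11, those lower in complex I were 13 and in complex III 3, and the median of complex IV turned to 0.12. With the replicate block added to them, 35 members were lower and 10 higher, complex I had 12 lower, complex III 3 and complex IV 4, its median was 0.12, and 9 complex IV assembly factors were called. Of all genes, 30.7% were lower and 39.8% higher with the offsets alone, and 28.8 and 37.3% with the block added. Under these corrections, without and with the block, *Ndufa4* turned to 0.086 and 0.083, *Cox7a2* to 0.12 and 0.12, *Cox6b1* to 0.20 and 0.20, and *Uqcrfs1* to 0.018 and 0.018 (log2). The short length of the members moves with these values, and its part was not tested. Without a filter beyond 1 count 2 complex III members were lower, against 20.3% of all genes in that fit. With a log2 fold change past 1 also required, 1 member was lower and 2 were higher.

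Scaling by library size alone gave summed ratios of 0.801 for all members, 0.866 for complex II, 0.813 for complex III and 0.743 for complex V, and sums per kilobase gave 0.781 for complex II. The share of *Atp5g1*, which overlapped between groups, turned to a difference of 0.0657 percentage points per kilobase and ranged from -1.69 (without senescent replicate 2) to 1.27 (without senescent replicate 3) when a library was left out. With each library left out in turn, 41 to 59 members were lower (fewest without control replicate 2, most without senescent replicate 3) and 2 to 6 higher, with 2 to 6 lower in complex III. In these fits 29.4 to 37.4% of all genes were lower and 33.1 to 39.7% higher. *Cox8a* ranged from -0.038 to 0.075 and was below 0 without control replicate 1 or senescent replicate 2. *Uqcrc2* ranged from -0.032 to 0.053, was below 0 without control replicate 3 or senescent replicate 3, and turned to -0.053 and -0.053 with the GC term, without and with the block. The cause of these changes was not tested.

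Deviations of same-numbered libraries from their group means correlated at -0.097, 0.101 and -0.090 over 17589 genes. Not every library correlated best with its own number. With 3 libraries per group, these values cannot tell whether same-numbered libraries share an animal or culture. With the replicate block, 48 members were lower and 3 higher, against 32.2 and 33.9% of all genes in that fit.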

Other observations

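The name rule also matched 3 processed pseudogenes of *Atp5l*, which are not members. *Atp5l-ps1* had 1, 7 and 1 counts in control and 4, 6 and 11 in senescent replicates 1 to 3, and *Atp5l-ps2* had 4, 4 and 5 against 17, 4 and 15. *Atp5l2-ps* was at 0.361, 0.653 and 0.777 CPM in control and 0.289, 0.366 and 0.498 CPM in senescent libraries, and its groups overlapped. All 3 were far below *Atp5l*, at 43.0 to 48.4 CPM in control.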
